A study of Mus musculus with 32 samples.

Results

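The genes described here encode enzymes that write or erase methyl groups on lysine 9 of histone H3 (H3K9). The list names 10 genes, and a gene was taken as measured where the array annotation gives a probe (a set of oligonucleotides summarized as a single signal) to that gene symbol alone. Of the 10 genes, 9 had exactly such a probe among the 35556 probes of the arrays: the methyltransferase genes Ehmt1, Ehmt2, Setdb1 and Suv39h2, and the demethylase genes Kdm3a, Kdm3b, Kdm4a, Kdm4b and Kdm4c. Suv39h1 was not analysed here.

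Methylation of H3K9 is a mark of silent chromatin. EHMT1 (GLP) and EHMT2 (G9a) act as a heterodimer that places mono- and dimethylation in euchromatin, SETDB1 trimethylates H3K9 at retroviral elements, and the SUV39H enzymes trimethylate it in pericentric heterochromatin. The KDM3 demethylases remove mono- and dimethylation, and the KDM4 demethylases remove di- and trimethylation. In mouse germ cells, loss of EHMT2 is known to arrest meiosis, and H3K9 dimethylation is known to decline as germ cells are specified.

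The study asked whether endocrine disruptors (EDs) given during pregnancy change the transcripts of fetal germ cells and whether changes reach the next generation. Germ cells were sorted by EGFP, which the OG2 transgene expresses under the Oct4 promoter, and their total RNA was hybridized to 32 arrays. Pregnant G0 dams were treated from 12.5 dpc, and germ cells were collected at 17.5 dpc. In the G1R generation (FVBxOG2 fetuses exposed in utero), female germ cells (FGCs, fetal oocytes) and male germ cells (MGCs, prospermatogonia) came from dams given 1 of 3 EDs, in mg per kg and day 0.2 of bisphenol A (BPA), 750 of the phthalate ester DEHP or 100 of the fungicide vinclozolin (VZ), or oil alone. In the G2R generation (OG2xFVB fetuses, never exposed directly), only MGCs descending from DEHP, VZ or oil dams were measured. Each of the 11 groups had 3 arrays, except that G1R DEHP FGCs had 2. All cells, the oil controls included, carried the OG2 transgene. The labels do not say that the arrays of a group came from separate litters, so p-values measure the spread between these arrays, and the small number of arrays limits the precision.

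The labels give the cell type as primordial germ cells for both sexes, and sex was taken from their titles and gender field. The germ cell markers Ddx4, Dazl and Pou5f1 were above the level of dim probes (log2 6.57, the 90th percentile of olfactory receptor probes) in every group. Pou5f1 (Oct4), whose promoter drives the EGFP of the sort, had a mean of 7.65 in oil FGCs and of 10.83 in oil MGCs. Of 4 prospermatogonia markers, Dnmt3l and Piwil4 were lower in oil FGCs (6.09 and 7.61) than in oil MGCs (11.81 and 11.31), whereas Tdrd9 was higher (11.03 in oil FGCs, 10.75 in oil MGCs) and the mean of Nanos2 was below the level of dim probes in every group. The sexes were separated by Y-linked and meiosis genes. The 3 Y-linked genes averaged 4.72 to 5.87 per female array and 8.20 to 8.92 per male array. The mean of 6 meiosis and oocyte markers ran from 10.45 to 10.64 in female arrays and from 7.65 to 8.06 in male arrays. Of the 6, 5 were higher in oil FGCs, whereas Stra8 was lower (5.205 in oil FGCs, 5.581 in oil MGCs). The mean of Stra8 was below the level of dim probes in every group. Some markers of other gonadal cells also differed with sex: the mean of 6 endothelial markers was 6.40 to 6.67 in female and 7.75 to 8.08 in male arrays, and all 6 were lower in oil FGCs than in oil MGCs. Whether the germ cells themselves express these 6 genes was not tested. The mean of 6 Sertoli cell markers was 6.86 to 7.20 in female arrays and 7.04 to 9.12 in male arrays, so the sexes overlapped. Its highest value was in a BPA MGC array. Of these 6, 2 were lower in oil FGCs than in oil MGCs and 4 were not called. The mean of 4 fetal Leydig cell markers was 5.99 to 6.39 in female arrays. It reached 9.16 in a G2R DEHP MGC array and 8.90 in a BPA MGC array. Of these 4, 2 were lower in oil FGCs than in oil MGCs and 2 were not called. The mean of 7 peritubular and interstitial markers was 7.13 to 7.34 in female arrays and reached 9.42 in a BPA MGC array. Of these 7, 4 were lower in oil FGCs than in oil MGCs, 1 was higher and 2 were not called. Without any single BPA MGC array, the BPA counts below stayed at 5 genes higher and 3 lower, but the other BPA MGC arrays remained in each of these fits. With FGC arrays also left out in turn, the BPA total ran from 7 to 8 calls. The part of these cells in the results below was not tested, and in sorted bulk RNA fewer cells of a type and less RNA per cell cannot be told apart.

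The regions upstream of 4 of these genes are shown because their transcripts went in opposite directions between the sexes: those of Ehmt1 and Suv39h2 were higher in FGCs, and those of Ehmt2 and Kdm3a were lower. The sequences are from RefSeq (GRCm38.p6) and hold the bases before the annotated gene, from its promoter entry farthest upstream, 5′ to 3′ on the strand of the gene. No other annotated gene overlaps the printed windows. Capitals mark, on either strand, the E-box CACGTG, the cAMP response element TGACGTCA, the GC box GGGCGG, which reads CCGCCC on the other strand, and the CCAAT box, which reads ATTGG there, and no match of a motif overlaps that of another.
Ehmt1, chr2:24919644-24919859, minus strand: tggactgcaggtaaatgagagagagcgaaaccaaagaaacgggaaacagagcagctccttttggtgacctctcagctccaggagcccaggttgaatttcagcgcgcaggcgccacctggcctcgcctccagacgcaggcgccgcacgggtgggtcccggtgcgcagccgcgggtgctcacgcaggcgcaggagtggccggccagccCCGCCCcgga
Ehmt2, chr17:34898224-34898462, plus strand: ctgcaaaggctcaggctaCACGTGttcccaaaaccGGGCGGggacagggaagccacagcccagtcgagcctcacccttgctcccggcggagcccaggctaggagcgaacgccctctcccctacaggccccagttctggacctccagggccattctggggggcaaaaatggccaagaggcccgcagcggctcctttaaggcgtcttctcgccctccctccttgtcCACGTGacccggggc
Kdm3a, chr6:71632991-71633167, minus strand: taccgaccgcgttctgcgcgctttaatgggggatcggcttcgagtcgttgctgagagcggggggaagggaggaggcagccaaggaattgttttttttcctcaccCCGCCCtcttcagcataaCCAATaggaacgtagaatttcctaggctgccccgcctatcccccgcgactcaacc
Suv39h2, chr2:3474987-3475236, minus strand: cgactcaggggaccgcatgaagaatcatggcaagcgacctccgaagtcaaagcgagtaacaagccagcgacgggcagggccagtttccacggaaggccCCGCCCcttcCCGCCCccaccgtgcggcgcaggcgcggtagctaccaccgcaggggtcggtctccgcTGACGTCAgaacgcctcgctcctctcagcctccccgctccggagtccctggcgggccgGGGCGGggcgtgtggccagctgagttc

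Of the 9 measured genes, 7 matched a promoter entry by symbol. For each gene only the entry farthest upstream was read, whereas Kdm3a has 3 entries and Ehmt2 and Kdm4c have 2 each. In the full entries of 300 bases (250 before and 50 after the start), the Ehmt2 promoter held 2 E-boxes, and no E-box was found in the windows of the other 6 genes, whereas 7.15% of all 32851 promoters hold at least 1. The cAMP response element was found in Suv39h2 alone among the 7, against 1.79% of all promoters. GC boxes were found in Ehmt1, Ehmt2, Kdm3a, Setdb1 and Suv39h2, against 35.7% of all promoters, and CCAAT boxes in Kdm3a, Kdm4a and Setdb1, against 37.4%. The number of CpGs per entry was 34 in Ehmt1, 33 in Suv39h2, 28 in Ehmt2 and 24 in Kdm3a. It was 15 in Setdb1, 13 in Kdm4a and 0 in Kdm4c, with a median of 7 over all promoters. These matches describe the sequence and name no bound factor.

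The sexes were compared within each G1R treatment, as 4 comparisons that share no array. In oil controls, 5 of the 9 genes were higher in FGCs than in MGCs (Ehmt1, Setdb1, Suv39h2, Kdm4b and Kdm4c) and 3 were lower (Ehmt2, Kdm3a and Kdm4a), at an adjusted p under 0.05 in limma. Over all probes, 28.7% were called higher and 25.6% lower in this comparison, so a call is common in this comparison. The counts were 5 higher and 3 lower after BPA (30.6% and 25.1% of all probes) and after VZ (31% and 24.5%), and 5 higher and 2 lower after DEHP (28.5% and 23.6%). In all 4 treatments, 5 genes were called higher and 2 lower, as were 20.6% and 19.5% of all probes. The median difference of the 9 genes in oil was 0.48 on the log2 scale, which is the value of Setdb1, against 0.0492 over all probes. Under cyclic loess normalization of the arrays, Setdb1 had 0.27 and the median over all probes was -0.00442, so the size depended on the scaling.

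Over all treatments and both generations, 7 of the 9 genes separated every female from every male array. Ehmt1, Setdb1, Suv39h2, Kdm4b and Kdm4c were higher in all 11 female arrays than in any of the 21 male arrays, as were 16.7% of all probes, and Ehmt2 and Kdm3a were lower in all of them, as were 15.5% of all probes. Only Kdm3b and Kdm4a overlapped between the sexes. The gap between the nearest female and male arrays was widest for Kdm3a (1.50) and Ehmt2 (0.94), followed by Kdm4c (0.60), Ehmt1 (0.55), Suv39h2 (0.33), and Kdm4b and Setdb1 (0.21 each), all on the log2 scale. In the plot of all arrays, the order of the groups is therefore set by sex for these 7 genes, and the treatments within a sex lie close together.

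**Figure D1:**
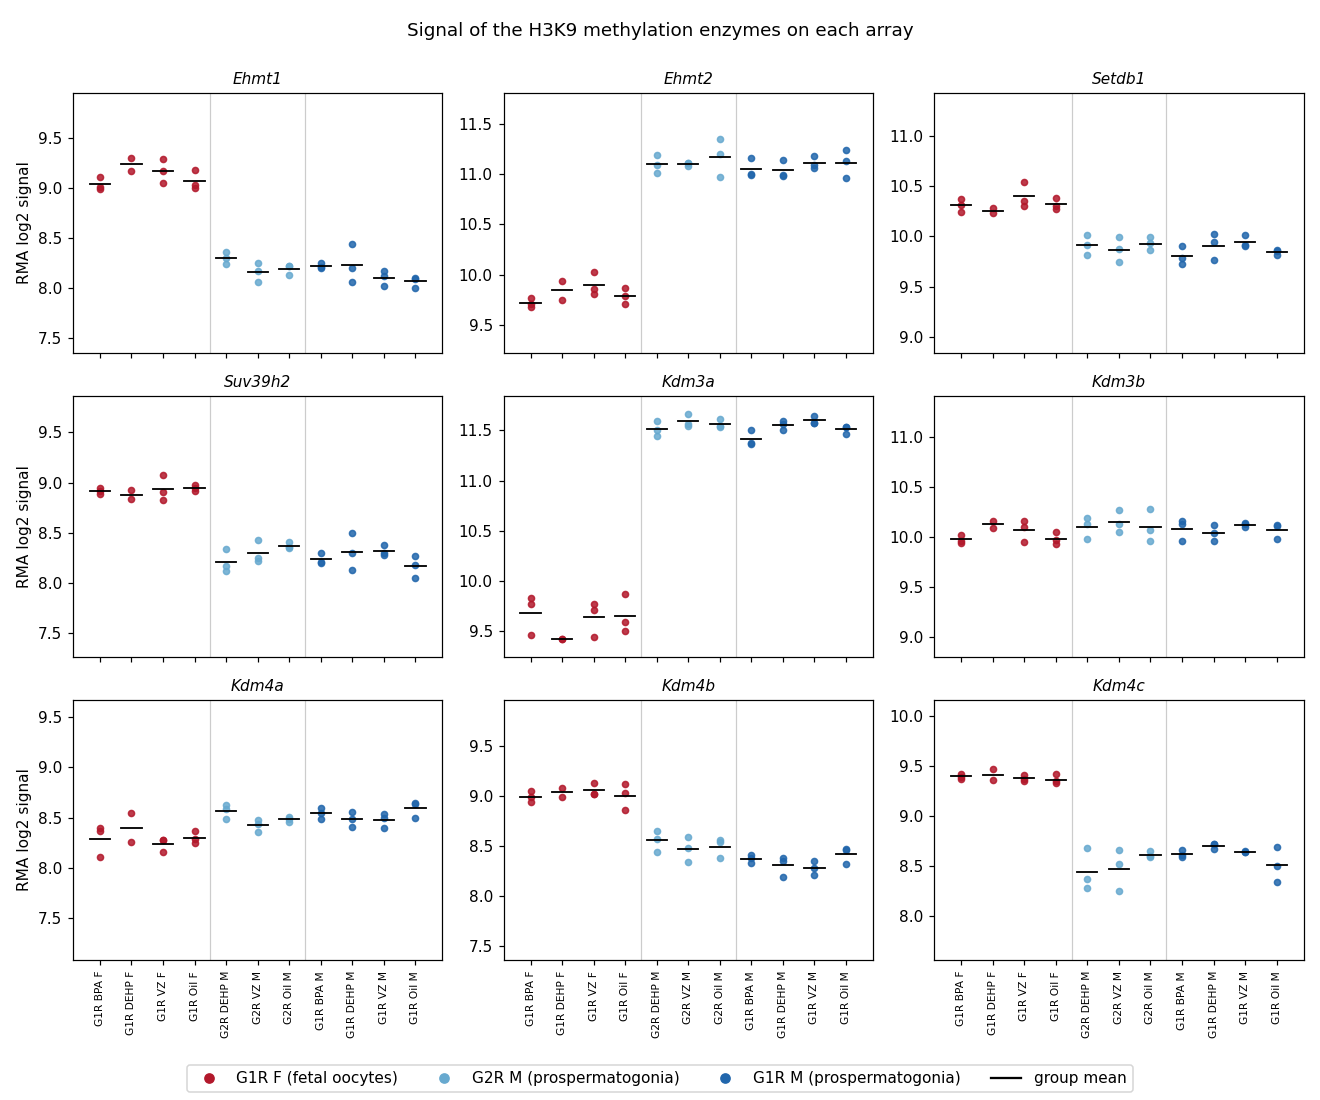
RMA log2 signal (y axis) of the 9 genes on each of 32 arrays (points), in 11 groups (x axis), with group means as black bars and the same span of 2.6 log2 units in every panel. Female arrays lie apart from all male arrays in 7 panels, with the widest gap for Kdm3a (1.50), and overlap with them for Kdm3b and Kdm4a.

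The methyltransferase genes did not move as a block. Ehmt1 (GRCm38.p6, chr2:24790769-24919643) encodes the partner of EHMT2 in the heterodimer. Its log2 signal was 9.0, 9.02 and 9.17 in oil FGCs, against 8.11, 8.0 and 8.09 in oil MGCs. All female values lay above all male values, by a difference of means of 1.00 (SE 0.084, 95% confidence interval 0.83 to 1.17, adjusted p = 1.23e-10 by limma), a 2-fold higher signal. Ehmt2 (chr17:34898463-34914073), the gene of the other subunit, ran the other way, with 9.86, 9.71 and 9.79 in oil FGCs, against 11.25, 11.13 and 10.97 in oil MGCs. The difference was -1.33 (SE 0.092, interval -1.52 to -1.14, adjusted p = 3.08e-12), so that the transcripts of the 2 heterodimer partners differed between the sexes in opposite directions.

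The same split held in each exposed pair of groups. Ehmt1 had 9.01, 9.11 and 8.98 in BPA FGCs and 8.25, 8.21 and 8.20 in BPA MGCs, a difference of 0.82 (SE 0.084, adjusted p = 5.44e-09). In DEHP germ cells it had 9.30 and 9.17 in FGCs and 8.06, 8.44 and 8.20 in MGCs, and in VZ germ cells 9.29, 9.17 and 9.05 in FGCs and 8.17, 8.02 and 8.12 in MGCs. These are differences of 1.01 and 1.07 in favour of FGCs, with no overlap in either pair. Ehmt2 had 9.68, 9.71 and 9.76 in BPA FGCs and 11.01, 11 and 11.16 in BPA MGCs, a difference of -1.34. It had 9.93 and 9.75 in DEHP FGCs and 10.98, 11.15 and 10.99 in DEHP MGCs (-1.20), and 10.03, 9.85 and 9.81 in VZ FGCs and 11.09, 11.06 and 11.18 in VZ MGCs (-1.22). The lowest male array of Ehmt2 stood at 10.97 and the highest female array at 10.03.

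Setdb1 and Suv39h2, the genes of trimethylating enzymes, were both higher in FGCs. Setdb1 (chr3:95323525-95357202) had 10.39, 10.28 and 10.30 in oil FGCs and 9.82, 9.86 and 9.85 in oil MGCs, with a difference of 0.48 (SE 0.081, interval 0.31 to 0.65, adjusted p = 1.56e-05). Its difference was 0.51 after BPA, 0.35 after DEHP and 0.46 after VZ, and it passed the test in each. After DEHP, this call was lost under cyclic loess normalization of the arrays (0.15, adjusted p = 0.132). Suv39h2 (chr2:3455815-3474986) had 8.97, 8.92 and 8.95 in oil FGCs and 8.17, 8.27 and 8.04 in oil MGCs, a difference of 0.78 (SE 0.087, interval 0.61 to 0.96, adjusted p = 1.8e-08). Its difference in the exposed groups was 0.68 (BPA), 0.57 (DEHP) and 0.62 (VZ), again with no overlap. In the annotation, Setdb1 overlaps Cers2, Suv39h2 overlaps Dclre1c, Kdm4a overlaps Gm23382 and Kdm4b overlaps Gm32715. The positions of the array's oligonucleotides within the genes were not used here.

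Among the demethylase genes, Kdm3a (chr6:71588970-71632990) had the widest difference of the list. KDM3A removes mono- and dimethylation from H3K9 and is known in mice for its need in spermiogenesis. Its signal was 9.50, 9.87 and 9.59 in oil FGCs, against 11.54, 11.53 and 11.46 in oil MGCs. The difference was -1.86 (SE 0.096, interval -2.06 to -1.66, adjusted p = 9.86e-15), a 3.63-fold lower signal in FGCs, and 3.93% of all probes had a larger difference in either direction. Kdm3a had 9.77, 9.45 and 9.82 in BPA FGCs, against 11.36, 11.37 and 11.50 in BPA MGCs (-1.73). It had 9.42 and 9.42 in DEHP FGCs, against 11.51, 11.57 and 11.60 in DEHP MGCs (-2.14), and 9.76, 9.43 and 9.71 in VZ FGCs, against 11.58, 11.65 and 11.58 in VZ MGCs (-1.97). In oil, the SD was 0.19 in FGCs and 0.044 in MGCs (n = 3 each), whereas the 2 DEHP FGC arrays were equal to 2 decimals.

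Kdm3b (chr18:34777008-34839370), the paralog of Kdm3a with the same substrate, showed no such difference. Its signal was 10.05, 9.94 and 9.97 in oil FGCs and 10.11, 10.12 and 9.98 in oil MGCs, and the groups overlapped. The difference was -0.09 with an interval of -0.26 to 0.09 (adjusted p = 0.398), and it was -0.11 after BPA, 0.08 after DEHP and -0.05 after VZ, none of which passed the test. Under cyclic loess normalization, which lowered the female minus male values of the list, the differences were -0.30 in oil (adjusted p = 0.00103), -0.34 after BPA (adjusted p = 0.000274) and -0.22 after VZ (adjusted p = 0.00985), and these passed. Whether Kdm3b was lower in FGCs therefore depended on the scaling, whereas the values of Kdm3a under the same scaling were -2.00, -1.88, -2.26 and -2.06 for oil, BPA, DEHP and VZ.

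The KDM4 genes split as well. Kdm4c (chr4:74242497-74405864) had 9.33, 9.42 and 9.35 in oil FGCs and 8.34, 8.69 and 8.50 in oil MGCs, a difference of 0.86 (SE 0.094, adjusted p = 1.73e-08). Kdm4b (chr17:56325970-56403774) had 8.86, 9.12 and 9.02 in oil FGCs and 8.47, 8.32 and 8.46 in oil MGCs, a difference of 0.58 (SE 0.083, adjusted p = 1.1e-06). Both kept apart from MGCs in every treatment, with differences of 0.78, 0.71 and 0.73 for Kdm4c and 0.62, 0.73 and 0.78 for Kdm4b after BPA, DEHP and VZ. Kdm4c was the steadiest gene among FGCs, where the means of the 4 groups spanned 0.05, against 0.26 among the 7 MGC groups.

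Kdm4a (chr4:118136957-118180090) was lower in FGCs by a small step. Its signal was 8.24, 8.28 and 8.36 in oil FGCs, against 8.65, 8.64 and 8.50 in oil MGCs, without overlap. The difference was -0.30 (SE 0.082, interval -0.47 to -0.13, adjusted p = 0.00312), and it was -0.25 after BPA (adjusted p = 0.00976) and -0.24 after VZ (adjusted p = 0.0154). In DEHP germ cells, with 8.54 and 8.26 in FGCs and 8.41, 8.56 and 8.49 in MGCs, the groups overlapped and the difference of -0.09 did not pass (adjusted p = 0.452). Under cyclic loess normalization it was -0.24 and passed (adjusted p = 0.0306). The call after BPA was lost without replicate 3 of the BPA FGCs (-0.16, adjusted p = 0.104) or with only the arrays of that pair (adjusted p = 0.0791), and the call after VZ without replicate 1 of the VZ FGCs (-0.20, adjusted p = 0.0715) or replicate 2 of the VZ MGCs (-0.21, adjusted p = 0.0644). The term for a different effect of DEHP in the sexes was 0.21 (interval -0.04 to 0.46, adjusted p = 0.728), so the DEHP pair was not shown to differ from the oil pair.

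**Figure D2:**
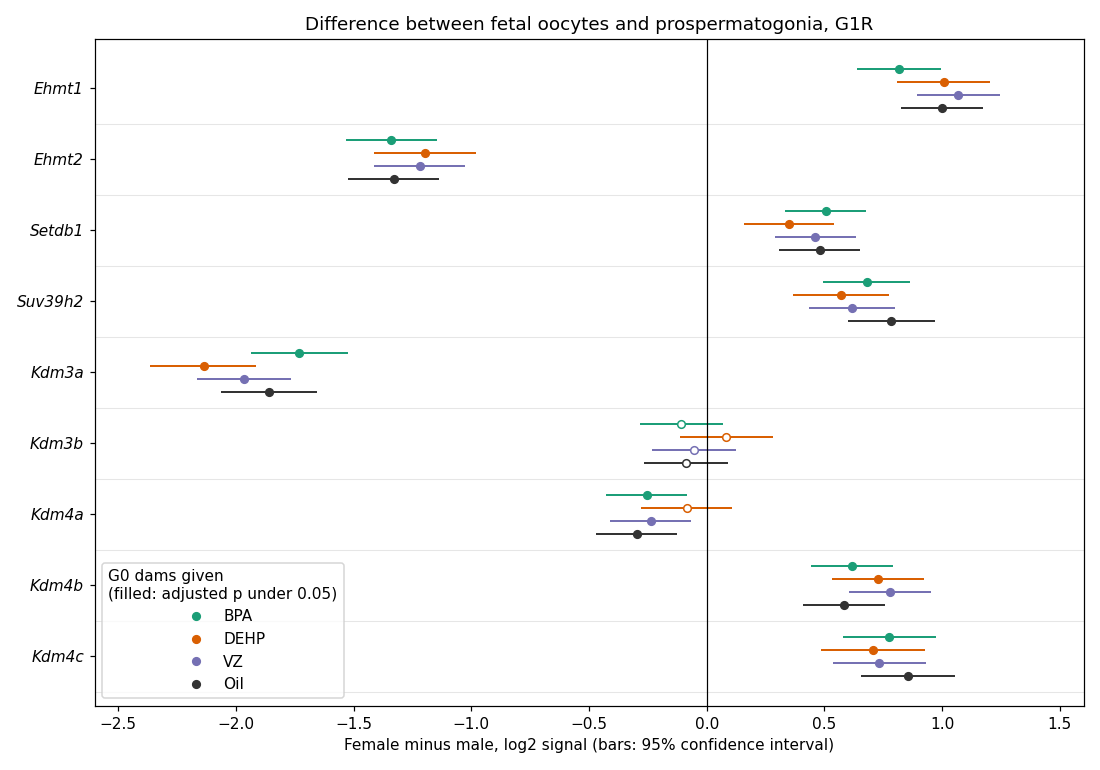
Female minus male difference in log2 signal (x axis) of each gene (y axis) in G1R germ cells of BPA, DEHP, VZ and oil dams, with 95% confidence intervals as bars and filled points where the adjusted p was under 0.05. Ehmt1 lies near 1.00 and Ehmt2 near -1.33 in oil, Kdm3a lies farthest below 0, and Kdm3b crosses 0 in all 4 treatments.

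The other genes of H3K9 methylation were followed as 2 lists beside the members. All 8 other enzyme genes were measured, by 11 probes, of which 4 were higher and 5 lower in oil FGCs (28.7% and 25.6% of all probes), with a median difference of -0.07. Counted by gene, 4 of the 8 were higher, 3 were lower and 1 was not called. Kdm4d, a KDM4 demethylase gene, had a mean of 8.01 in oil FGCs and of 6.22 in oil MGCs, and passed (adjusted p = 2.37e-12), but the male value was below the level of dim probes and the size of the difference was not read. Kdm1a, whose product LSD1 removes mono- and dimethylation from H3K4 and, with some partners, from H3K9, had 9.96 in oil FGCs and 11.27 in oil MGCs (-1.31, adjusted p = 4.09e-13). Jmjd1c, a relative of Kdm3a and Kdm3b, was lower in oil FGCs by both of its probes (-0.80 and -0.60), and Setdb2, a relative of Setdb1, was higher by 0.59 (adjusted p = 3.62e-05). Of the 3 genes of the KDM3 family, Kdm3a and Jmjd1c were thus lower in FGCs and Kdm3b did not pass the test.

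Of 13 genes of partners and readers, 12 were measured, by 19 probes. Of these probes, 5 were higher and 5 lower in oil FGCs, against 28.7% and 25.6% of all probes. Counted by gene, 5 of the 12 were higher, 4 were lower and 3 were not called. Tasor, which encodes a subunit of the HUSH silencing complex, had 10.72 in oil FGCs and 8.30 in oil MGCs, a difference of 2.42 (adjusted p = 6.59e-15). Pphln1, which encodes another HUSH subunit, was higher by 1.23 (adjusted p = 1.67e-11). Cbx1, which encodes the H3K9 methylation reader HP1 beta, was higher by 2.05 (adjusted p = 6.63e-14), and Cdyl, a chromodomain corepressor gene, by 1.50 (adjusted p = 1.19e-13). The 7 probes of Cbx3, the gene of HP1 gamma, lay between -0.01 and 0.14 and none passed, and some of these probes share their values. Lower in oil FGCs were Cdyl2, Zfp644, Cbx5 and both probes of Atf7ip, the gene of a SETDB1 partner. The median of the 19 probes was 0.05, against 0.0492 over all probes, and 7 of the 19 were those of Cbx3.

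**Figure D3:**
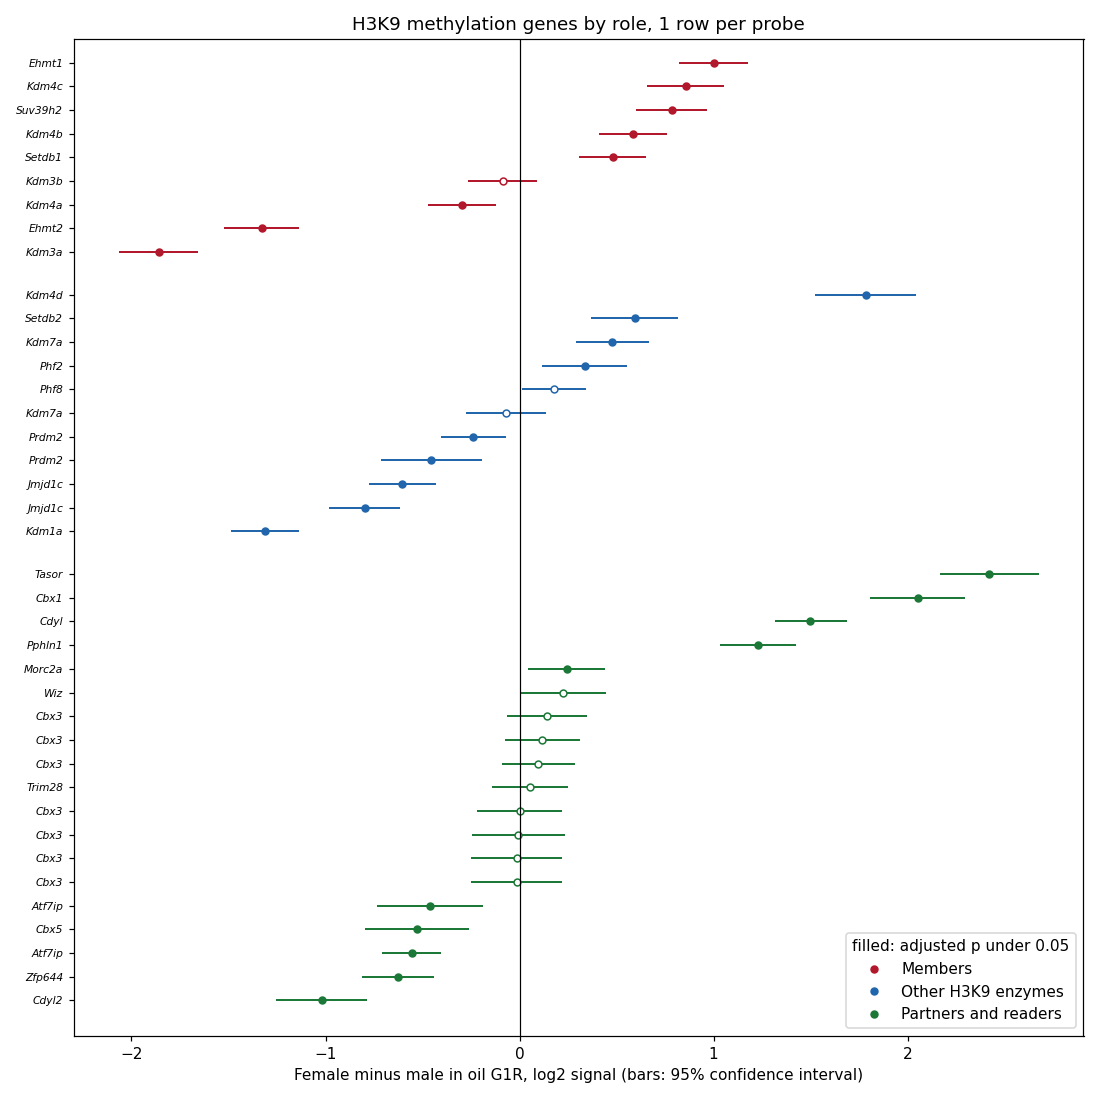
Female minus male difference in log2 signal in oil G1R germ cells (x axis) for each probe (y axis) of the members, of other H3K9 enzymes and of partners and readers, with 95% confidence intervals as bars and filled points where the adjusted p was under 0.05. Each of the 3 groups holds probes on both sides of 0, from -1.86 (Kdm3a) to 2.42 (Tasor), and the male level behind Kdm4d was below that of dim probes.

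The genes with group means most like those of Kdm3a over the 11 groups were Gucy2c (Pearson r = 0.9991), Tcp11x2 (0.9989) and Clstn2 (0.9989). For Ehmt2 they were Ccnjl (0.9990), Hmox1 (0.9987) and Ap2a2 (0.9985). These correlations follow the step between the sexes, and 853 of 21788 single-gene probes had an r above 0.99 with Kdm3a and 810 with Ehmt2. Over the 7 male groups alone, r with Kdm3a was 0.936 for Gucy2c, 0.852 for Tcp11x2 and 0.755 for Clstn2, and r with Ehmt2 was 0.901 for Ccnjl, 0.587 for Hmox1 and 0.947 for Ap2a2. These genes were picked over 11 groups that include those 7, where the means of Kdm3a spanned 0.19 and those of Ehmt2 0.14. The share of all probes with such an r over the male groups is not given here, so no likeness beyond the sex step is read.

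The EDs were then compared with oil within sex and generation. In all 8 comparisons, 0 of the 9 genes had an adjusted p under 0.05. Over all probes, 0.00562% were called in DEHP and in VZ G1R MGCs (2 probes each), and 0% in the other 6 comparisons. Under cyclic loess, the probes called were 32 higher and 4 lower in DEHP, 3 higher and 2 lower in VZ and 4 higher in BPA G1R MGCs, and 1 higher in DEHP G1R FGCs, with 0 of the 9 genes among them. Of the 72 differences of a gene between ED and oil, 2 had an unadjusted p under 0.05, which is 2.78% of them, against 8.59% over all probes. The 72 differences ran from -0.23 to 0.20 on the log2 scale, and the widest confidence limits were -0.45 and 0.39. Groups without overlap occurred in 8 of the 72, against an average of 15.5% of all probes.

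The 2 differences with an unadjusted p under 0.05 both followed DEHP. Kdm3a was at 9.42 on both DEHP FGC arrays, against 9.50, 9.87 and 9.59 in oil FGCs. The groups did not overlap, as in 22.3% of all probes, and the difference was -0.23 (SE 0.11, interval -0.45 to -0.01, unadjusted p = 0.0401, adjusted p = 0.774 in limma), in a comparison where 6.28% of all probes had an unadjusted p under 0.05. Single arrays of BPA and VZ FGCs stood at 9.45 and 9.43, close to the DEHP values. Kdm4c was at 8.72, 8.68 and 8.72 in DEHP G1R MGCs, against 8.34, 8.69 and 8.50 in oil G1R MGCs, which overlap. Its difference was 0.20 (interval 0.00 to 0.39, unadjusted p = 0.0456, adjusted p = 0.337), where 14.4% of all probes had an unadjusted p under 0.05. Replicates 1 and 3 of the oil G1R MGCs were the lowest G1R MGC values of Kdm4c, and all BPA and VZ G1R MGC arrays lay at 8.59 to 8.66.

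For the heterodimer partners, the intervals of the ED differences lay between -0.26 and 0.36. Ehmt1 differed from oil by -0.03 (BPA), 0.17 (DEHP) and 0.10 (VZ) in G1R FGCs and by 0.15, 0.16 and 0.04 in G1R MGCs. Ehmt2 differed by -0.07, 0.06 and 0.11 in G1R FGCs and by -0.06, -0.08 and 0.00 in G1R MGCs. In G2R MGCs, the DEHP and VZ differences were 0.11 and -0.03 for Ehmt1 and -0.07 and -0.07 for Ehmt2. None of these passed, and the means of the groups within a sex spanned at most 0.24 for Ehmt1 and 0.18 for Ehmt2.

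**Figure D4:**
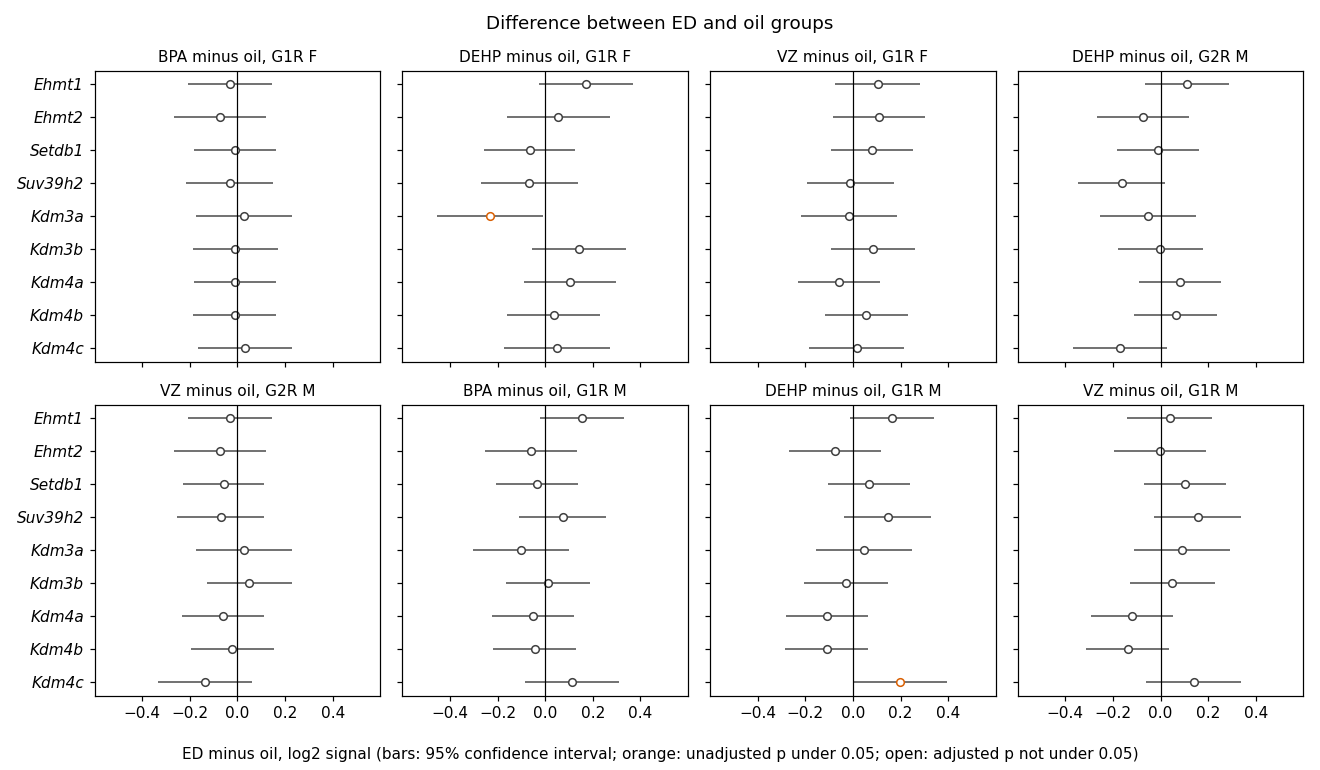
ED minus oil difference in log2 signal (x axis) of each gene (y axis) in 8 comparisons, with 95% confidence intervals as bars; all points are open because no adjusted p was under 0.05. The 2 orange points, Kdm3a in DEHP G1R FGCs (-0.23) and Kdm4c in DEHP G1R MGCs (0.20), had an unadjusted p under 0.05.

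The effect of each ED was also compared between sexes. None of the 9 genes passed in the 3 sex by treatment terms, in which 0% of all probes passed and no member had an unadjusted p under 0.05. The terms ran from -0.28 to 0.21, and the term farthest from 0 was that of Kdm3a for DEHP (-0.28, interval -0.58 to 0.02, adjusted p = 0.69).

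G2R and G1R oil MGCs were compared to see how the generations differ without an ED. None of the 9 genes passed. Over all probes, 5% were higher and 5.3% lower in G2R, so a call is uncommon in this comparison and its absence among 9 genes is not read as a trait of them. The generations also differ in the direction of the cross and in the time when their arrays were run. They further differ in the carrying dam, which was given oil in G1R, whereas G2R fetuses were carried by OG2 females mated to G1 males. These cannot be told apart here. Suv39h2 came nearest, with 8.40, 8.36 and 8.35 in G2R oil MGCs and 8.17, 8.27 and 8.04 in G1R oil MGCs. All G2R values lay above the G1R values, with a difference of 0.21 (SE 0.087, interval 0.03 to 0.39, unadjusted p = 0.0251, adjusted p = 0.124). Ehmt1 also had no overlap, with 8.22, 8.22 and 8.13 in G2R and 8.11, 8.0 and 8.09 in G1R oil MGCs (0.13, adjusted p = 0.349). Groups without overlap made up 32.6% of all probes in this comparison. The other 7 genes overlapped, with differences from -0.11 (Kdm4a) to 0.11 (Kdm4c). Of both lists, only Zfp644, which encodes a zinc finger partner of EHMT1 and EHMT2, passed (0.33, adjusted p = 0.0201).

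Last, the ED effects were compared between generations. None of the 9 genes passed in either generation by treatment term, nor did any other probe (0%), against 3 probes lower in the DEHP term under cyclic loess. For DEHP, the terms of Kdm4c (-0.37, interval -0.64 to -0.09, unadjusted p = 0.0106, adjusted p = 0.238) and Suv39h2 (-0.31, interval -0.56 to -0.06, unadjusted p = 0.0183, adjusted p = 0.278) had an unadjusted p under 0.05, as had 13.3% of all probes. Kdm4c was at 8.28, 8.37 and 8.68 in G2R DEHP MGCs, against 8.60, 8.65 and 8.59 in G2R oil MGCs, so that a single DEHP array lay above the oil arrays and the others below. Suv39h2 was at 8.17, 8.33 and 8.12 in G2R DEHP MGCs, below the 8.40, 8.36 and 8.35 of G2R oil MGCs (-0.16, adjusted p = 0.746), and at 8.50, 8.13 and 8.30 in G1R DEHP MGCs, against 8.17, 8.27 and 8.04 in G1R oil MGCs (0.15, adjusted p = 0.45). For VZ, the term of Kdm4c was -0.28 (unadjusted p = 0.0489, adjusted p = 0.307), with 8.52, 8.66 and 8.26 in G2R VZ MGCs, and 16.2% of all probes had an unadjusted p under 0.05.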

How the data were processed

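The authors normalized the Mouse Gene 1.0 ST arrays by RMA in Partek (version not given in the sources used here), and deposited log2 signals for 35556 probes, from 2.59 to 14.82, with array medians of 7.29 to 7.5. RMA makes the arrays share a distribution, so a shift of all transcripts cannot be seen. Arrays were grouped by their labels into 11 groups, and no array was left out. A limma 3.58.1 model (R 4.3.3) with a mean per group was fitted to all probes of the 32 arrays (21 residual degrees of freedom). Benjamini-Hochberg adjustment covered every probe of a comparison, and an adjusted p under 0.05 was called. The model was tested on simulated data. Intervals are 95% confidence intervals. Figures were drawn with matplotlib 3.10.9. The platform annotation gives 21789 single-gene probes. For 21698 of these, the symbol was taken from RefSeq through the gene identifier of the annotation, and the members have the same symbol in both.

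The members and lists were chosen with earlier results of these data known. All members were named. Of each other list, up to 4 genes with the smallest p were named, and further genes were added after their values were seen. For the 2 members with the widest sex difference in oil, the 3 probes with the most similar group means were named. The alternatives were only the arrays compared, probes above log2 6.57 (24636 probes), single-gene probes, cyclic loess, array weights, no moderation, a replicate block, and each array left out.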

Additional observations from a re-analysis of the deposited data

How the results depend on the processing

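Under all alternatives, the 9 genes gave 8 to 9 calls between FGCs and MGCs in oil, 7 to 9 after BPA, 7 after DEHP and 7 to 9 after VZ, and 0 in every ED, generation and interaction comparison. Cyclic loess gave -0.30 for Kdm3b in oil, which then passed, and turned its uncalled DEHP difference to -0.12; after DEHP, it called 4 genes higher and 3 lower, without Setdb1 and with Kdm4a (-0.24, adjusted p = 0.0306); for the uncalled G2R minus G1R differences in oil MGCs, it gave -0.018 for Ehmt2, -0.020 for Kdm3a, -0.059 for Kdm3b and -0.0033 for Setdb1. The cause was not tested. Leaving out an array at a time, the G2R minus G1R difference ran from -0.029 to 0.16 for Ehmt2 and from -0.058 to 0.10 for Kdm3b. The female minus male difference ran from -0.23 to 0.056 for Kdm4a after DEHP, and from -0.098 to 0.0073 for Kdm3b after VZ, both uncalled. With the replicate number as a block, the counts stayed at 8 (oil), 8 (BPA), 7 (DEHP), 8 (VZ) and 0 elsewhere. Deviations of arrays with the same number correlated between -0.354 and 0.131 over 37 pairs, so the numbers were not taken as pairs. Where a single array decided the call of Kdm4a, the value stands beside the result. The means of 2 DEHP FGC arrays are the least certain.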
